A study of Mus musculus with 4 samples.

Results

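The 43 genes described here encode components of transforming growth factor beta (TGF-beta), bone morphogenetic protein (BMP) and activin signalling, and they were taken from the deposited table by gene symbol out of 48395 genes. All 43 were found, each at 1 locus. RNA was sequenced from fluorescent, papain-dissociated cells of the forebrain cortex of ICR mouse embryos, electroporated in utero at embryonic day E14.5 and collected 48 hours later at E16.5. In the Zeb1 group, 2 libraries came from cells given a plasmid with the CAG promoter, Zeb1 and the green fluorescent protein ZsGreen. In the control group, 2 libraries came from cells given the same kind of plasmid without Zeb1, so cells of both groups expressed ZsGreen. CAG is a strong, ubiquitous promoter, so Zeb1 was expressed from it in any cell that took up the plasmid, and the labels do not say how many embryos or litters went into a library. The p-values therefore measure only the spread between these libraries, which may be technical.

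Ligands of this superfamily are secreted as dimers and are held or blocked outside the cell by binding proteins such as follistatin, noggin and chordin. They bring together type II and type I receptor kinases, which phosphorylate SMAD proteins. TGF-betas and activins act mainly through SMAD2 and SMAD3, BMPs through SMAD1, SMAD5 and SMAD9, and both branches need SMAD4. In the developing forebrain BMPs from the dorsal midline pattern the cortex, and their target genes, the Id genes, hold back neuronal differentiation. ZEB1, a zinc-finger repressor, is a well-known mediator of TGF-beta-induced epithelial-to-mesenchymal transition, and its relative ZEB2 was first described as a SMAD-binding protein.

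The table gives FPKM, a fragment count scaled to transcript length and library size. Its values are per length and can be compared between genes, but how deeply each library was sequenced is unknown. Zeb1 FPKM does not separate plasmid from endogenous transcripts. Between 13647 and 13997 genes per library had at least 1 FPKM. Zeb1 had 5925 ± 428 FPKM in the Zeb1 libraries and 26.9 ± 11.7 FPKM in the control libraries (SD, n = 2 each), with a limma adjusted p of 0.0192. Markers of projection neurons summed to 1495 and 1414 FPKM in Zeb1 libraries and to 1535 and 1759 FPKM in control libraries, and markers of apical radial glia to 1304 and 950 against 851 and 827 FPKM. Of the radial glia sum, Vim alone held 758 and 561 FPKM in Zeb1 libraries and 392 and 384 FPKM in control libraries, while Nes and Fabp7 had negative log2 fold changes. Markers of endothelial cells, pericytes and meningeal fibroblasts summed to at most 12.7 FPKM per library. Markers of microglia were well above that, and they differed between libraries. The 10 genes summed to 689 and 370 FPKM in Zeb1 libraries and to 393 and 101 FPKM in control libraries. Markers of red blood cells summed to 129 and 47.2 FPKM in Zeb1 libraries and to 62.4 and 50.9 FPKM in control libraries. Those of choroid plexus and cortical hem summed to 8.21 and 0.440 against 15.4 and 1.02 FPKM, so replicate 1 was higher in both groups. The part of red blood cell and choroid plexus RNA in the values below was not tested.

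Levels ranged widely over the set, with the BMP ligands among the lowest and Tgfb1 and Inhbb the highest of the ligand genes. Averaged over the 4 libraries, 22 of the 43 genes had at least 10 FPKM, 13 had between 1 and 10 FPKM, and 8 had less than 1 FPKM. The highest were Id2 (173 FPKM) and Smad4 (153 FPKM), and the 8 lowest were Bmp2, Bmp4, Bmp5, Bmp6, Bmp7, the betaglycan gene Tgfbr3, Smad9 and the pseudoreceptor gene Bambi. The other 35 genes reached a mean of 1 FPKM and were tested with limma on log2(FPKM + 1), in one fit of 14330 genes. Of these 35, 34 did so in both groups by their means, whereas Inhba passed only through the control libraries.

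The activin antagonist gene Fst, the ligand gene Tgfb3 and the protease gene Bmp1 had the smallest p of the set, each with a higher mean in Zeb1 cells. None of the 35 genes passed the limma test at an adjusted p under 0.05, a threshold that 0.195% of all 14330 genes passed (0.0837% higher and 0.112% lower). Without adjustment, 3 genes were higher at p under 0.05 (Fst, Bmp1 and Tgfb3) and 0 were lower. That is 8.57% of the 35, against 6.92% of all genes tested (3.23% higher and 3.68% lower), so the share was near the background. Among protein-coding genes alone 0 of the 35 passed at an adjusted p under 0.05 in limma, against 0.0252% of 11916 genes. In that fit 5 had an unadjusted p under 0.05 (Tgfb1 and Inhba besides), against 9.47%. Of these, Inhba had passed the filter only through the control libraries, where it was higher. The log2 fold changes, Zeb1 minus control, had a median of 0.13 over the 35 genes and of 0.00032 over all genes tested, and 24 of the 35, or 68.6%, were positive, against 50.1% of all genes tested. With control replicate 1 left out, the median was 0.23, and over the 4 ways of leaving out 1 library it lay between 0.06 and 0.23.

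**Figure D1:**
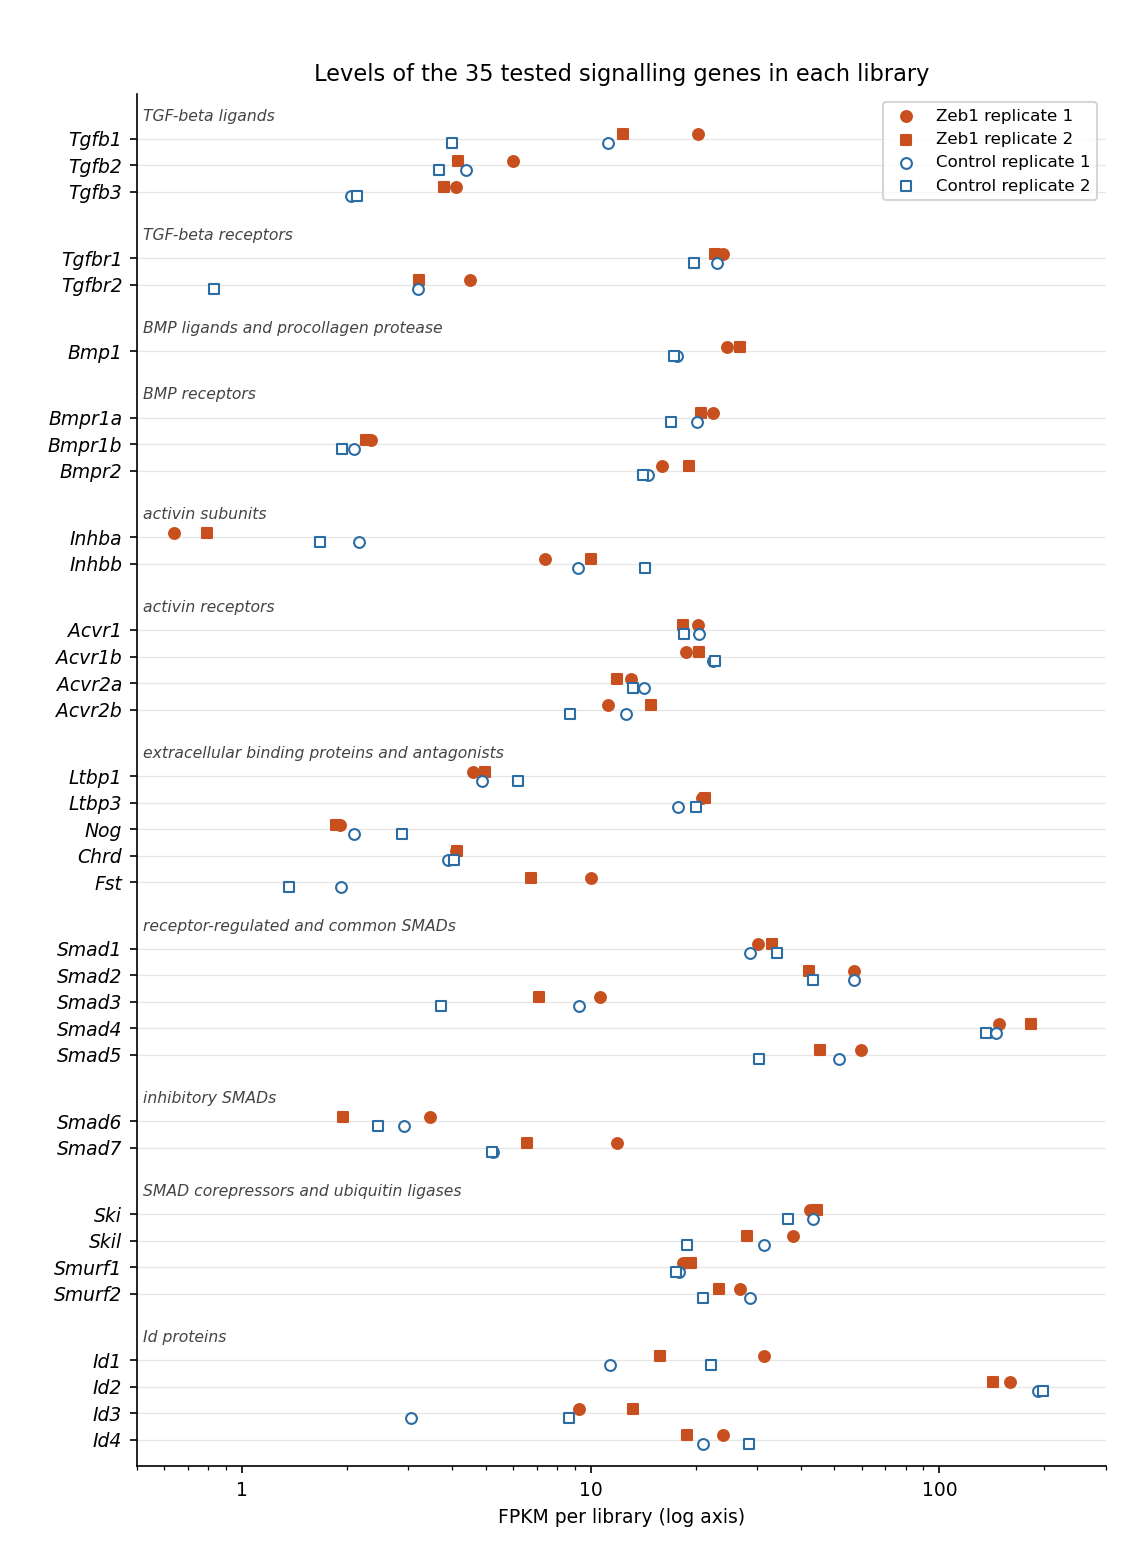
FPKM of the 35 tested genes, grouped by role, in the 2 Zeb1 libraries (filled) and the 2 control libraries (open), on a log axis, with circles for replicate 1 and squares for replicate 2. Fst stands apart with 10.03 and 6.76 FPKM in Zeb1 libraries against 1.93 and 1.36 FPKM in control libraries, while most receptors and SMADs lie close together.

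In 14 of the 35 genes both Zeb1 libraries were above both control libraries, a larger share than the 18.2% of all genes tested. In 5 of the 35 both were below, a smaller share than the 19.5% of all genes tested. Together these are 54.3% of the 35, against 37.6% of all genes tested. For 10 of the 35, or 28.6%, the difference between the group means was larger than the gap between the replicates of either group, against 25.0% of all genes tested. The 95% interval of the log2 fold change lay within -1 and 1 for 23 of the 35 genes, so for these a change of more than 2-fold on the log2(FPKM + 1) scale lay outside the interval.

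**Figure D2:**
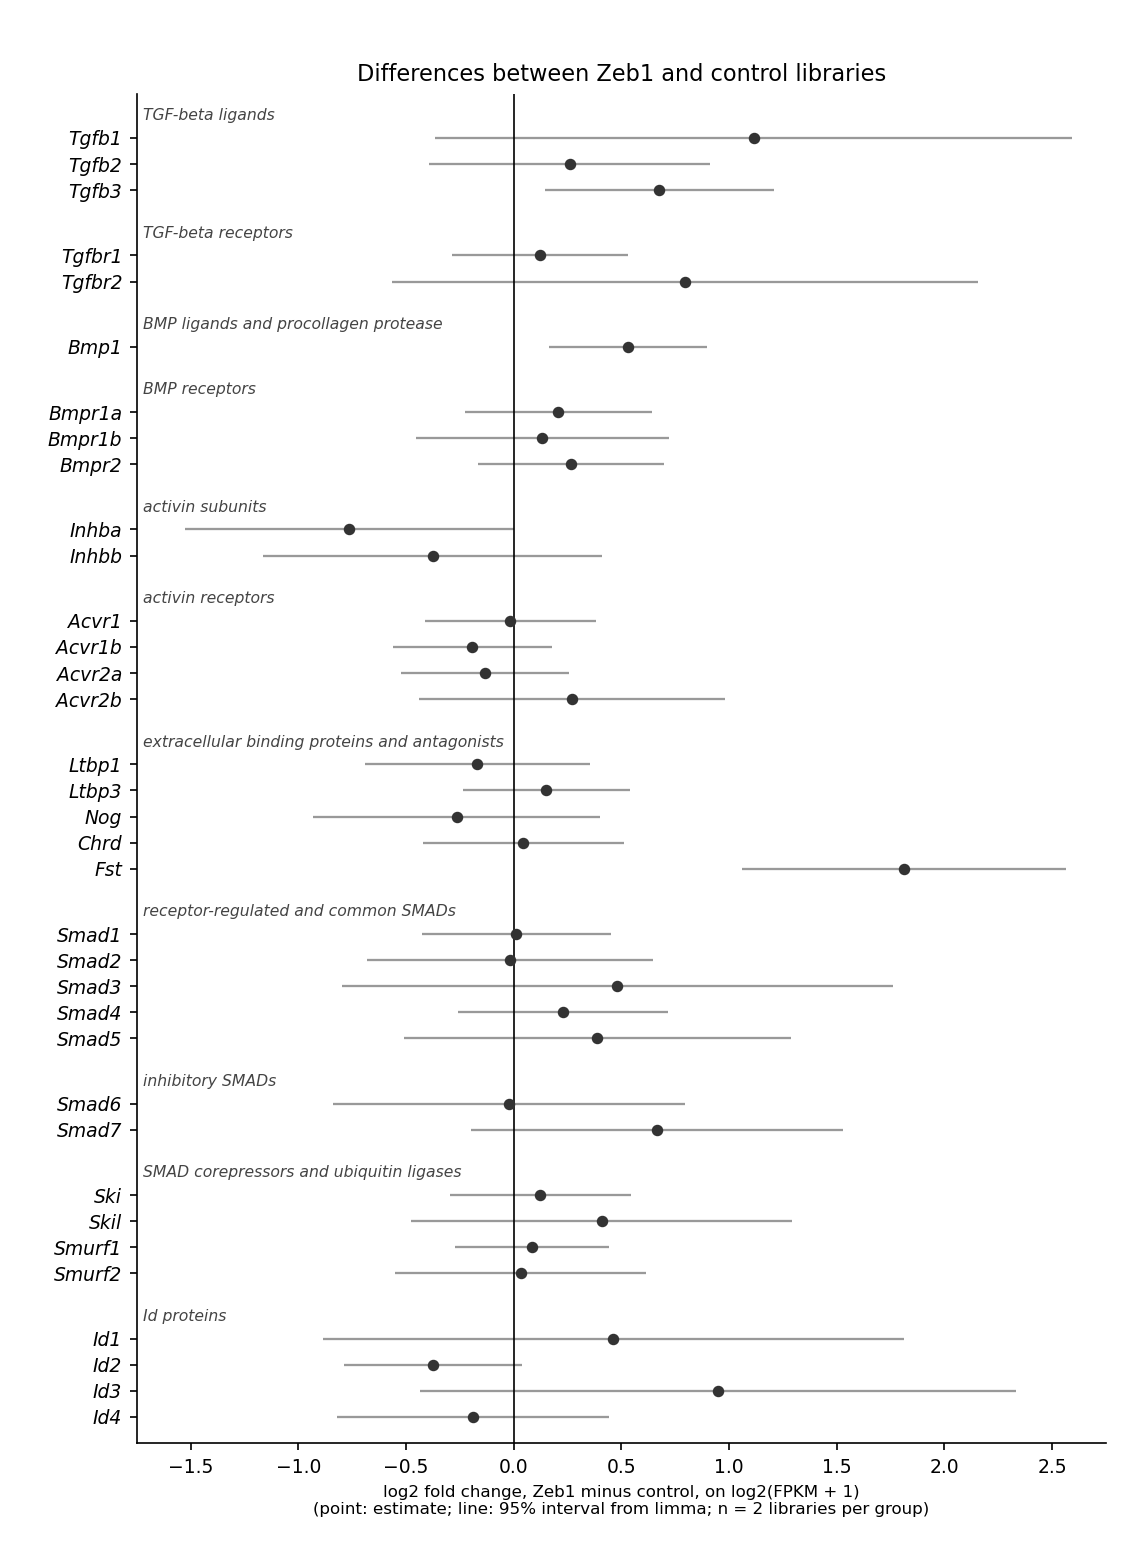
Log2 fold changes of the 35 tested genes, Zeb1 minus control on log2(FPKM + 1), as points with 95% limma intervals (n = 2 libraries per group). The intervals of Fst (1.06 to 2.57), Tgfb3 (0.15 to 1.21) and Bmp1 (0.16 to 0.90) lie above 0. That of Inhba (-1.53 to 0.00018) just reaches 0, and the others include it. Inhba reached the level for testing only through the control libraries.

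Fst encodes follistatin, a secreted protein that binds activins and blocks them. It had 10.03 and 6.76 FPKM in Zeb1 libraries and 1.93 and 1.36 FPKM in control libraries, so the groups did not overlap and the mean was 5.10-fold higher in Zeb1 cells. The log2 fold change was 1.81 with a standard error of 0.27 (limma adjusted p = 0.343 over all genes). Among protein-coding genes alone the limma adjusted p was 0.134. The log2 fold change stayed between 1.56 and 2.07 when any 1 library was left out. Fst lies on chromosome 13 of GRCm38, positions 114452262 to 114458730.

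Inhba encodes the beta A subunit, whose dimer is activin A. It had 0.640 and 0.793 FPKM in Zeb1 libraries and 2.17 and 1.67 FPKM in control libraries. The Zeb1 libraries were both lower, and the control mean was 2.68 times the Zeb1 mean. Inhba reached the level for testing only through the control libraries, so its p is given as description alone. The log2 fold change was -0.76 with a standard error of 0.27 (limma adjusted p = 0.721, with the unadjusted p just over 0.05), and with a pseudocount of 0.1 in place of 1 it was -1.302. Inhba occupies positions 16011851 to 16027211 of chromosome 13. Taken per length, Fst was at 15.7 and 8.53 times the level of Inhba in the Zeb1 libraries and at 0.889 and 0.815 times its level in the control libraries, so Fst was above Inhba in both Zeb1 libraries and below it in both controls. That ratio rests in part on Inhba values under 1 FPKM.

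Inhbb, the beta B subunit gene, was the more abundant subunit. It had 7.41 and 9.9995 FPKM in Zeb1 libraries and 9.19 and 14.3 FPKM in control libraries, and the groups overlapped (log2 fold change -0.38, limma adjusted p = 0.765). Without control replicate 2 the log2 fold change was -0.083. Fst stood at 1.35 and 0.676 times Inhbb in Zeb1 libraries and at 0.210 and 0.0954 times Inhbb in control libraries, so it was below Inhbb in Zeb1 replicate 2 and in both controls. Inha, the alpha subunit gene that turns an activin beta subunit into an inhibin, belongs to the other pathway genes. It had 6.04 and 5.75 FPKM in Zeb1 libraries and 11.0 and 12.5 FPKM in control libraries. Both Zeb1 libraries were lower (log2 fold change -0.89, standard error 0.15, limma adjusted p = 0.409).

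**Figure D3:**
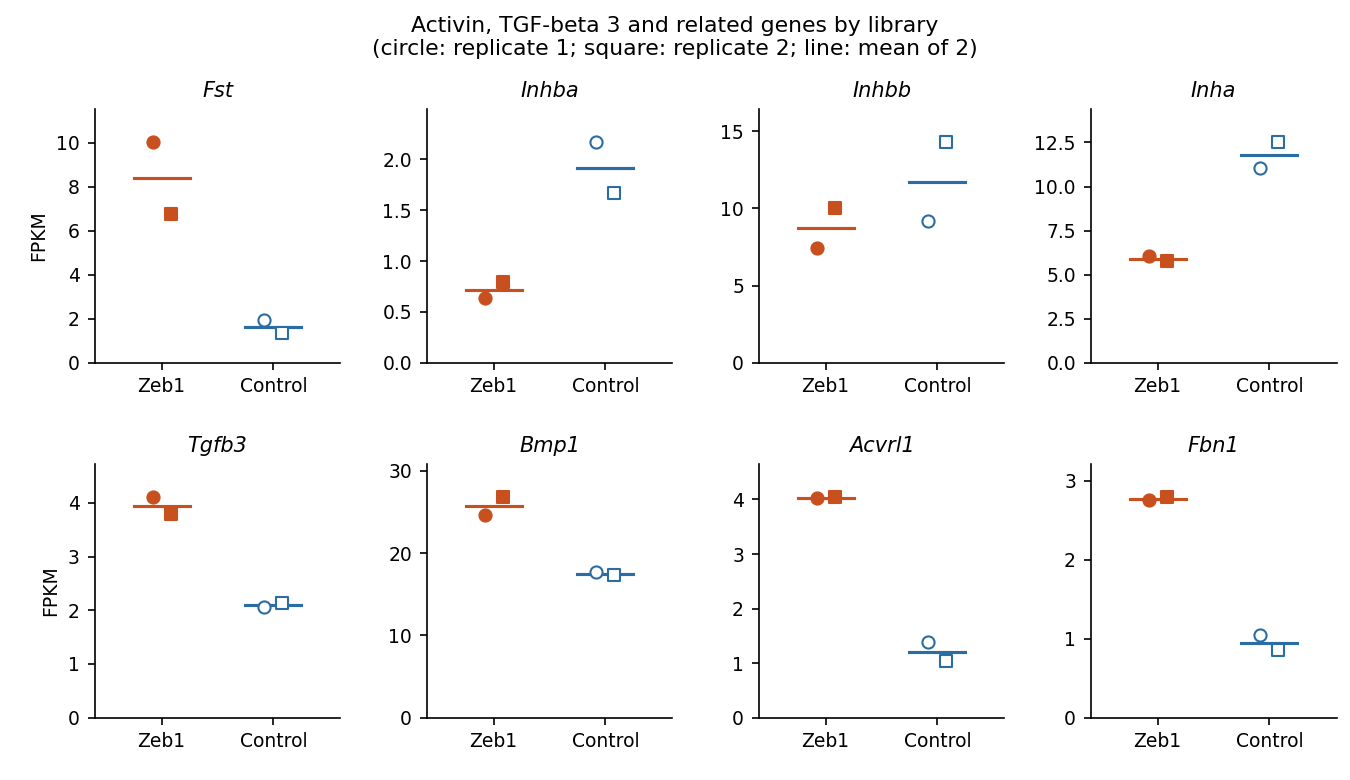
FPKM of Fst, the subunit genes Inhba, Inhbb and Inha, and Tgfb3, Bmp1, Acvrl1 and Fbn1 in each library, with Zeb1 libraries on the left and control libraries on the right of each panel, and lines at the means of 2 libraries. The genes were chosen after their values were seen. The groups overlap for Inhbb and are apart in the other panels, as they are for 37.6% of all genes tested. Inhba reached the level for testing only through the control libraries, and Fbn1 only through the Zeb1 libraries.

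Receptors for activins and related ligands were close to even between the groups. The type I receptor gene Acvr1b had 18.8 and 20.5 FPKM in Zeb1 libraries and 22.4 and 22.7 FPKM in control libraries. The type II receptor gene Acvr2a had 13.1 and 11.9 against 14.2 and 13.3 FPKM. Both were lower in both Zeb1 libraries, by small amounts, with log2 fold changes of -0.19 and -0.13 and limma adjusted p of 0.764 and 0.822. Acvr2b, the second type II receptor gene, had 11.2 and 14.9 FPKM in Zeb1 libraries and 12.7 and 8.73 FPKM in control libraries, and Acvr1, which encodes a type I receptor used mainly by BMPs, had 20.3 and 18.4 against 20.5 and 18.6 FPKM. Both overlapped between the groups. All 4 intervals of the log2 fold change lay between -0.56 and 0.98.

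The promoter of Inhba is shown because Inhba is the tested gene with the largest negative log2 fold change in the set, as the 250 bases before the RefSeq start, chr13:16011601-16011850 on the plus strand of GRCm38.p6. Capitals would mark matches to CANNTG, the general E-box that ZEB1 sites belong to, or to GGCGCC, a GC element bound by BMP-activated SMADs.
Inhba: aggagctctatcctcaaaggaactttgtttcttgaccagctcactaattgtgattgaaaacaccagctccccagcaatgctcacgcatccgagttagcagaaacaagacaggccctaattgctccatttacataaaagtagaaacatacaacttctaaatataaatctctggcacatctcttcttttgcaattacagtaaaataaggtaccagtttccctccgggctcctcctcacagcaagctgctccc
Neither motif was found in this window on either strand, which says only that these letters are not in it.

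Among the TGF-beta ligands, Tgfb3 was the one with a tight difference. It had 4.11 and 3.80 FPKM in Zeb1 libraries and 2.05 and 2.14 FPKM in control libraries, a mean 1.89-fold higher without overlap. The log2 fold change was 0.68 with a standard error of 0.19 (limma adjusted p = 0.621), and it stayed between 0.63 and 0.72 when any 1 library was left out. Tgfb3 lies on chromosome 12, positions 86056744 to 86079041. Tgfb1 was the most abundant of the 3 ligand genes, with 20.3 and 12.4 FPKM in Zeb1 libraries and 11.2 and 3.996 FPKM in control libraries. Both Zeb1 libraries were higher, but the gap between the controls was as wide as that between the groups (log2 fold change 1.11, 95% interval -0.37 to 2.60). Tgfb2 had 5.98 and 4.18 FPKM in Zeb1 libraries and 4.40 and 3.67 FPKM in control libraries, which overlapped.

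The TGF-beta receptors showed the same contrast between an even gene and a spread one. Tgfbr1, the type I receptor gene, had 24.0 and 22.7 FPKM in Zeb1 libraries and 23.0 and 19.8 FPKM in control libraries, a log2 fold change of 0.12 with a 95% interval of -0.29 to 0.53. Tgfbr2, the type II receptor gene, had 4.51 and 3.21 FPKM in Zeb1 libraries and 3.20 and 0.831 FPKM in control libraries. Control replicate 2 was far below the other 3, and Zeb1 replicate 2 and control replicate 1 were nearly equal. The log2 fold change of Tgfbr2 was 0.80 (limma adjusted p = 0.764) and became 0.20 without control replicate 2. The co-receptor gene Tgfbr3 reached at most 0.206 FPKM in any library.

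Tgfb1 and Tgfbr2, like the 10 microglia genes summed, were highest in Zeb1 replicate 1 and lowest in control replicate 2. Fst was highest and lowest in the same libraries. For the microglia sum, Zeb1 replicate 2 and control replicate 1 stood at 95.3% and 101.2% of the 4-library mean. For Tgfb1 they stood at 103.7% and 93.5%. In control replicate 2 the microglia sum stood at 26.0% of its mean over the 4 libraries, Tgfb1 at 33.4% and Tgfbr2 at 28.2%. Smad3 stood there at 48.6%, Skil at 64.9% and Fst at 27.1%. In bulk RNA of sorted cells, fewer cells of a type and less RNA per cell cannot be told apart. Smad3, which encodes a receptor-activated SMAD, had 10.7 and 7.11 FPKM in Zeb1 libraries and 9.24 and 3.74 FPKM in control libraries, and Skil, which encodes the SMAD corepressor SnoN, had 38.0 and 28.0 against 31.3 and 18.9 FPKM. Without control replicate 2 the log2 fold change was 0.47 for Tgfb1, where it was 1.11 with all libraries, -0.07 for Smad3 (0.48 with all) and 0.06 for Skil (0.41 with all). Fst, Tgfb3 and Bmp1 kept 1.66, 0.70 and 0.52 there. Of the 35 genes, 18, or 51.4%, were lowest in control replicate 2, against 29.7% of all genes tested. The part of microglial RNA in these values was not tested.

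**Figure D4:**
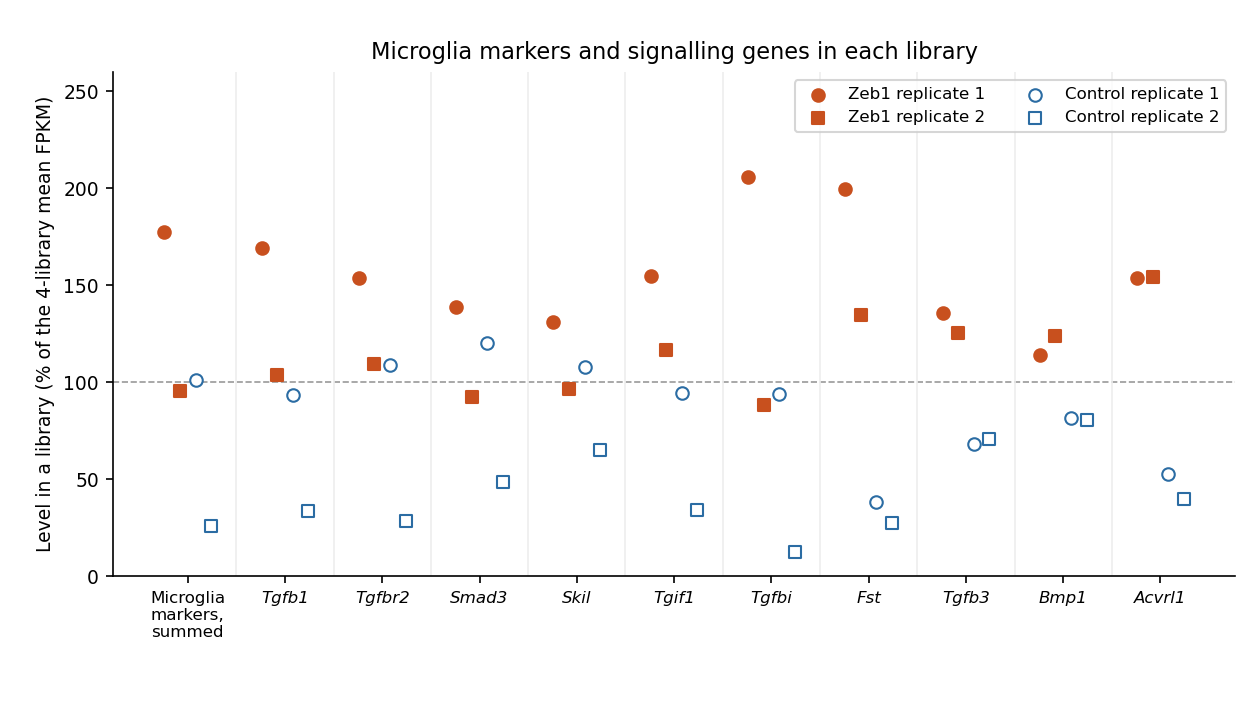
Level in each library as a percentage of the mean FPKM of the 4 libraries, for the 10 microglia markers summed and for 10 signalling genes chosen after their values were seen, with Zeb1 libraries filled and control libraries open. Control replicate 2 is lowest for the microglia sum (26.0%) and for each gene shown except Tgfb3, including Fst (27.1%). For Tgfb3, Bmp1 and Acvrl1 the replicates of a group lie close together.

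BMP ligands were barely detected in these cells. Bmp7 reached at most 0.772 FPKM, Bmp2 0.848 FPKM, Bmp6 0.223 FPKM, Bmp4 0.174 FPKM and Bmp5 0.147 FPKM in any library, all below the level for testing. Bmp4 had 0.174 and 0.152 FPKM in Zeb1 libraries and was listed at 0 in both controls. Bmp6 had 0.0452 and 0.0650 FPKM in Zeb1 libraries and 0.180 and 0.223 FPKM in control libraries. At such levels a gene may rest on few reads, and the table gives no counts to say how few.

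Bmp1 shares the name but encodes a secreted protease that matures procollagens and cleaves the BMP antagonist chordin. It had 24.7 and 26.8 FPKM in Zeb1 libraries and 17.6 and 17.4 FPKM in control libraries, a mean 1.47-fold higher with no overlap. The log2 fold change was 0.53 with a standard error of 0.13 (limma adjusted p = 0.601), and it lay between 0.47 and 0.59 when any 1 library was left out. Its gene is on chromosome 14, positions 70474557 to 70520260.

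BMP receptor genes were well above the BMP ligand genes in level. The type I receptor gene Bmpr1a had 22.5 and 20.7 FPKM in Zeb1 libraries and 20.2 and 17.04 FPKM in control libraries. Bmpr1b, a further type I receptor gene, had 2.35 and 2.27 against 2.10 and 1.94 FPKM, and the type II receptor gene Bmpr2 had 15.99 and 19.2 against 14.7 and 14.2 FPKM. In all 3 genes both Zeb1 libraries were above both controls, as in 18.2% of all genes tested. The log2 fold changes were 0.21, 0.13 and 0.27. None passed the limma test (adjusted p of 0.764 to 0.901), and their intervals lay between -0.46 and 0.72. All 3 were lowest in control replicate 2, without which Bmpr1a had 0.089, and Bmpr2 had 0.14 without Zeb1 replicate 2.

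The other extracellular regulators tested in the set had log2 fold changes between -0.26 and 0.15, with 95% intervals between -0.93 and 0.54. The BMP antagonist genes Nog (noggin) and Chrd (chordin) had log2 fold changes of -0.26 and 0.05. Nog had 1.91 and 1.86 FPKM in Zeb1 libraries and 2.09 and 2.87 FPKM in control libraries, and Chrd had 4.11 and 4.14 against 3.89 and 4.05 FPKM. Ltbp3 and Ltbp1, which encode proteins that tether latent TGF-beta to the matrix, had 0.15 and -0.17. Bambi, which encodes a receptor without a kinase domain, had 1.56 and 0.790 FPKM in Zeb1 libraries and 0.472 and 0.733 FPKM in control libraries and was not tested. Both Zeb1 libraries were higher for Bambi, with the spread within the Zeb1 group wider than the step between the groups.

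The SMAD genes that carry the signal were abundant. Smad4, the shared partner, had 149 and 183 FPKM in Zeb1 libraries and 145 and 136 FPKM in control libraries, and Smad2 had 57.0 and 42.3 against 57.0 and 43.3 FPKM. Smad2 thus gave nearly the same pair of values in both groups (log2 fold change -0.02, 95% interval -0.68 to 0.65). For the BMP branch, Smad1 had 30.2 and 33.1 FPKM in Zeb1 libraries and 28.7 and 34.2 FPKM in control libraries, and Smad5 had 59.8 and 45.5 against 51.5 and 30.4 FPKM. Smad9 reached at most 0.0773 FPKM, so of the BMP-activated SMAD genes Smad1 and Smad5 were the ones at a level for testing. Smad5 was lowest in control replicate 2, and its log2 fold change of 0.39 became 0.02 without that library.

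Inhibitory SMADs feed back on the receptors, Smad7 on both branches and Smad6 mainly on BMP signalling. Smad7 had 11.9 and 6.56 FPKM in Zeb1 libraries and 5.26 and 5.21 FPKM in control libraries. Both Zeb1 libraries were higher, but they stood apart from each other, and the log2 fold change of 0.67 (limma adjusted p = 0.764) became 0.28 without Zeb1 replicate 1. Smad6 had 3.46 and 1.95 FPKM in Zeb1 libraries and 2.92 and 2.46 FPKM in control libraries, with overlap. The corepressor gene Ski and the ubiquitin ligase genes Smurf1 and Smurf2, whose products mark SMADs and receptors for degradation, had log2 fold changes of 0.12, 0.09 and 0.03. Their 95% intervals lay between -0.55 and 0.61.

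The Id genes encode helix-loop-helix proteins that lack a DNA-binding region and hold E proteins inactive, and they are classical BMP targets. Their log2 fold changes differed in sign. Id2, by far the most abundant, had 159 and 142 FPKM in Zeb1 libraries and 192 and 199 FPKM in control libraries, lower in both Zeb1 libraries (log2 fold change -0.37, standard error 0.15, limma adjusted p = 0.742). Id3 had 9.26 and 13.2 FPKM in Zeb1 libraries and 3.05 and 8.67 FPKM in control libraries. It was higher in both Zeb1 libraries, with a log2 fold change of 0.95 (95% interval -0.43 to 2.33), and the controls stood far apart. With 1 library left out it ran from 0.32, without control replicate 1, to 1.58, without control replicate 2. Id1 had 31.4 and 15.8 against 11.3 and 22.2 FPKM, and Id4 had 24.0 and 18.9 against 21.0 and 28.4 FPKM, and both overlapped between the groups. Without Zeb1 replicate 1, the log2 fold change of Id1, 0.46 with all libraries, became -0.01. As a ratio of FPKM, Id2 stood at 17.2 and 10.8 times Id3 in Zeb1 libraries and at 63.1 and 22.9 times Id3 in control libraries. The ratio of Id2 to Id1 was 5.06 and 9.02 in Zeb1 libraries and 16.9 and 8.96 in control libraries, and that of Id2 to Id4 was 6.62 and 7.53 against 9.14 and 6.99. These last ratios overlapped between the groups.

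The promoters of Id2, Id3 and Id4 are shown because the log2 fold changes of these members of one family differed in sign. All their 95% intervals included 0, so the signs are not settled. For Id4 the log2 fold change was -0.19 (95% interval -0.82 to 0.44). Each promoter is the 250 bases before the RefSeq start in GRCm38.p6, read on the strand of the gene, with capitals for matches to CANNTG or GGCGCC. They come from chr12:25096093-25096342 (minus strand), chr4:136143572-136143821 (plus strand) and chr13:48260866-48261115 (plus strand). For Id3 and Id4, RefSeq and the deposited table place the gene start differently.
Id2: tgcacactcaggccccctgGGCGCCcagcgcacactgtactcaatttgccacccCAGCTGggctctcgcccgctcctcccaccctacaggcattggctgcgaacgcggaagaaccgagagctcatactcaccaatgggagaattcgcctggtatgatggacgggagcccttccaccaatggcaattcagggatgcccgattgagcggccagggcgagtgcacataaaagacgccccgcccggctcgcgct
Id3: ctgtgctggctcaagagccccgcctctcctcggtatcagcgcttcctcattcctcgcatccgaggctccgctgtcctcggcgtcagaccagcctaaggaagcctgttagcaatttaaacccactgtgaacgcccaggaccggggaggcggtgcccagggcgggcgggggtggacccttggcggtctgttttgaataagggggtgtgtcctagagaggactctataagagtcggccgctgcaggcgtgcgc
Id4: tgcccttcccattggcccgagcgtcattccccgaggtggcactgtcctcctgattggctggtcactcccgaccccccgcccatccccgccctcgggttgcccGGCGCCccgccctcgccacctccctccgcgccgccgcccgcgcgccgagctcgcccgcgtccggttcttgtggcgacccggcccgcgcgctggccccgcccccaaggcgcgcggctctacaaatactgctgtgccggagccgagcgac
The Id2 window held GGCGCC at 231 to 226 bases before the start and the E-box CAGCTG at 196 to 191, the Id4 window held GGCGCC at 148 to 143, and the Id3 window held neither.

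Over the set, RefSeq promoters were found for 30 of the 43 genes, in 36 windows; Smad2, Smad4, Smad7, Tgfb3, Tgfbr3, Bmp1, Bmp2, Bmp7, Bambi, Nog, Fst, Skil and Id1 were not analysed here. CAGGTG, the E-box form preferred by ZEB proteins, or its reverse complement, stood in 4 of the 36 windows (11.1%), against 17.2% of all 32851 windows of the same length. Those 4 windows belonged to Bmp4, Bmp6, Bmpr1b and Smad9, and none of these genes but Bmpr1b reached the level for testing. CAGGTA or its reverse complement stood in 1 window (2.78%, against 10.05%), which was one of Tgfbr1. CANNTG, which includes CAGGTG but not CAGGTA, was found in 13 windows (36.1%, against 66.2%). GGCGCC, which reads the same on both strands, was found in 10 (27.8%, against 9.59%). The windows of the set had a median GC content of 66.6%, against 52.4% over all windows, and the part of base composition in these shares was not tested.

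A further 112 genes of the pathways were listed by role, and 62 of them reached the level for testing. None passed at an adjusted p under 0.05 in limma, and 4 had an unadjusted p under 0.05, of which 3 were higher and 1 lower. Of all genes tested, 6.92% had such a p. The 3 higher genes were Acvrl1, Tgif2 and Fbn1, which reached the level for testing only through the Zeb1 libraries, and the lower one was Inha. Their median log2 fold change was 0.13 over the 62, with 44 positive.

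Acvrl1 encodes ALK1, a type I receptor known from blood vessels. It had 4.02 and 4.04 FPKM in Zeb1 libraries and 1.38 and 1.04 FPKM in control libraries, a mean 3.33-fold higher without overlap (log2 fold change 1.19, standard error 0.22, limma adjusted p = 0.457). Eng, which encodes its co-receptor endoglin, had 4.48 and 1.81 FPKM in Zeb1 libraries and 1.35 and 0.993 FPKM in control libraries. Both genes are used as vascular genes, and the 9 endothelial markers summed to 11.8 and 8.17 FPKM in Zeb1 libraries and to 7.51 and 7.15 FPKM in control libraries, with 5 of the 9 below 1 FPKM in every library. Their part in these values was not tested. Itgb8, whose integrin activates latent TGF-beta, had a log2 fold change of 0.47 (limma adjusted p = 0.764). Among the tested receptor genes of the set, Acvr1, Acvr1b and Acvr2a had negative log2 fold changes (-0.02, -0.19 and -0.13) and the others positive ones. In the further list of receptors, co-receptors and related genes, all 8 tested had positive ones, against 50.1% of all genes tested. Of these 8, 7 were lowest in control replicate 2. For Eng, the log2 fold change of 0.86 with all libraries was 0.38 without Zeb1 replicate 1, and that of Itgb8 was 0.30 without control replicate 2.

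Among matrix and extracellular genes, Fbn1, which encodes the microfibril protein fibrillin that holds latent TGF-beta complexes, had 2.76 and 2.79 FPKM in Zeb1 libraries and 1.04 and 0.862 FPKM in control libraries. The mean was 2.92-fold higher without overlap (log2 fold change 0.95, limma adjusted p = 0.589). With a control mean of 0.951 FPKM, Fbn1 reached the level for testing only through the Zeb1 libraries, so its p is given as description alone. Thbs1, which encodes thrombospondin, an activator of latent TGF-beta, had a log2 fold change of 0.63, and Twsg1, which encodes a BMP-binding protein, one of -0.24. Of the 14 genes tested in this group, 11 were positive and 3 negative.

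Tgif2 encodes a homeodomain corepressor of SMADs. It had 14.2 and 15.8 FPKM in Zeb1 libraries and 9.05 and 9.81 FPKM in control libraries, a mean 1.59-fold higher without overlap (log2 fold change 0.62, limma adjusted p = 0.587). Its relative Tgif1 had 19.1 and 14.4 FPKM in Zeb1 libraries and 11.7 and 4.19 FPKM in control libraries. Like the microglia sum, Tgif1 was highest in Zeb1 replicate 1 and lowest in control replicate 2. Its groups did not overlap, and the part of microglial RNA in it was not tested. The log2 fold change of Tgif1, 1.12 with all libraries, became 0.48 without control replicate 2. Usp15, which encodes a deubiquitinating enzyme of the pathway, had a log2 fold change of -0.36 and Zeb2 one of -0.21. Of the 23 intracellular regulators tested, 11 were positive and 12 negative.

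Known TGF-beta target genes differed in how far they varied within the groups. Of the 9 tested, 8 had positive log2 fold changes, against 50.1% of all genes tested, 5 were lowest in control replicate 2, and 0 passed at an unadjusted p under 0.05 in limma. Ctgf, a matricellular growth factor gene, had 8.62 and 3.72 FPKM in Zeb1 libraries and 1.74 and 3.54 FPKM in control libraries. Tgfbi, which encodes a TGF-beta-induced matrix protein, had 18.6 and 7.97 against 8.50 and 1.13 FPKM, and Fn1, the fibronectin gene, had 41.9 and 32.8 against 73.9 and 39.5 FPKM. Like the microglia sum, Tgfbi was highest in Zeb1 replicate 1 and lowest in control replicate 2, and the part of microglial RNA in it was not tested. Its log2 fold change of 1.56 became 0.48 without control replicate 2. In these 3 genes the spread within a group was as wide as the step between the groups or wider. Of the BMP targets outside the Id family, Hey1 and Dlx5 were tested, with log2 fold changes of 0.14 and 0.46, and the midline gene Msx1 reached at most 0.115 FPKM. The E protein genes Tcf3, Tcf4 and Tcf12, whose products bind Id proteins, had log2 fold changes of 0.13, 0.09 and 0.21.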

How the data were processed

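RNA was measured in 4 libraries, 2 of Zeb1 and 2 of control cells, grouped by their titles. The deposited table holds FPKM per gene, made by the authors. The submitters' processing notes name the build GRCm38 and the tools Cufflinks, STAR and DESeq2, and the role of each tool is not given in the sources used here. With no counts, depth is unknown and no count model was fitted.

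Of 48395 genes, 27 names turned into dates were restored from their identifiers. The deposited starts count from 0 (1 below GENCODE M21 at 43309 loci) and were raised by 1. Zeb1 and control were compared with limma 3.58.1 in R 4.3.3 on log2(FPKM + 1), with an intensity trend and a two-sided moderated test, keeping genes that averaged 1 FPKM or more, and p-values were adjusted by Benjamini-Hochberg over all 14330 genes, with a threshold of 0.05. An exact permutation test of 2 against 2 cannot give a p under 0.333. Promoters came from RefSeq (GRCm38.p6), and both strands were searched. Plots were made in Python 3.11.15 with matplotlib 3.10.9.

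The genes of the set, the lists and the tests were chosen with earlier results of these data known. All 43 genes are named, and of each further list up to 3 tested genes with the smallest p; Zeb2 and genes cited for 1 low level were added. The steps were tested on simulated data. Alternatives were 2 pseudocounts, 2 filters, 3 scalings, 2 moderations, protein-coding genes alone, a replicate block and leaving out each library.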

Additional observations from a re-analysis of the deposited data

How the results depend on the processing

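None of the 35 genes tested passed an adjusted p of 0.05 in limma under any of the 15 alternatives run, and the smallest adjusted p was 0.134, for Fst among protein-coding genes alone. The alternatives that leave out 1 library called no gene at all, not even Zeb1, so they could not decide this for the set. Of the 35, 26 kept their sign in all alternatives. Sums over loci changed nothing to run, since each gene had 1 locus.

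Counts moved with the choices. Over all genes, 12 were higher and 16 lower. Without a filter 143 and 138 were called, among protein-coding genes alone 3 and 0, with robust moderation 20 higher, and at a mean of at least 5 FPKM 10 lower. Leaving out any 1 library gave 0 and 0 in limma, with at least 323 higher and 334 lower genes at an unadjusted p under 0.05. Of the set, 3 genes had a positive and 0 a negative log2 fold change with an unadjusted p under 0.05. The lower count was 3 without a filter (Bmp6, Id2 and Inhba), 2 with median-of-ratios scaling, and 1 with quantile normalization, without the intensity trend and with protein-coding genes alone. With 1 library left out it was 0 to 1, and the higher count 2 to 3. The median of the set was then 0.058 to 0.23. The lone library of a group is assumed to vary like the other group's.

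A replicate block called 5 genes higher and 6 lower over all genes. In that fit 5 of the set were higher at an unadjusted p under 0.05, with Tgfb1 and Id3 added. Of all 14330 genes, 766 were higher at such a p there, against 463 in the main fit. The deviations of same-numbered libraries correlated at 0.0833 over all genes tested and at 0.368 over the protein-coding ones. The labels do not say that the numbers pair the libraries, and 2 pairs do not settle it.

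Some signs turned. Rescaling to the same total gave 0.012 for Acvr1 and 0.013 for Smad2, and quantile normalization gave 0.023 for Smad2, -0.037 for Chrd and -0.024 for Gdf11. With 1 library left out, log2 fold changes ran from -0.084 to 0.053 for Acvr1, -0.11 to 0.14 for Smad1, -0.23 to 0.20 for Smad2, -0.074 to 1.04 for Smad3, -0.32 to 0.28 for Smad6, -0.18 to 0.25 for Smurf2, -0.013 to 0.94 for Id1, -0.40 to 0.019 for Id4, -0.80 to 0.48 for Gdf1 and -0.28 to 0.46 for Tcf4. For the other pathway genes, the alternatives were chosen after the data were seen. The causes were not tested.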
